A study of Saccharomyces cerevisiae with 6 samples.

Results

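The genes described here are 38 nuclear genes of budding yeast that encode the mitochondrial respiratory chain and the ATP synthase, chosen by systematic name from the 6277 genes listed in an RNA-sequencing table. They comprise 12 genes for ATP synthase subunits, the ATP synthase inhibitor gene INH1, 9 genes for cytochrome c oxidase, 9 for the bc1 complex, both cytochrome c genes, 4 for succinate dehydrogenase and NDI1, the NADH dehydrogenase of the inner membrane. All 38 were listed in every library, and the rule used no measured value. The study asked, mainly with purified proteins, how the TRAMP complex and the nuclear RNA exosome degrade unstable RNA while sparing stable RNA. RNA sequencing extended this to strains that differ in Rrp6, a nuclear 3′ to 5′ exoribonuclease that works with the exosome. Ribosome-depleted total RNA was sequenced from Saccharomyces cerevisiae of the BY4741/4743 background in 3 strains, with 2 individually selected clones and thus 2 libraries per strain. The chromosomal copies of RRP6 and MTR4 were deleted in every strain, and MTR4, the gene of the helicase of the TRAMP complex, was supplied on both pRS416 and pRS415. A further plasmid, pRS413, was empty in rrp6Δ, carried the exoribonuclease-inactive allele RRP6 D238N in Rrp6exo-, and carried WT RRP6 in WT, so WT here also lived on plasmid copies of both genes. Cells grew at 30 °C in SD medium lacking histidine, leucine and uracil, and were collected in mid-log phase after dilution to 0.2 OD600.

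The respiratory chain of yeast passes electrons from NADH and succinate through ubiquinone, the bc1 complex and cytochrome c to cytochrome c oxidase, and the resulting proton gradient drives the ATP synthase. Most subunits are encoded in the nucleus and imported, whereas a few core subunits are made inside the mitochondrion, so the bc1 complex, the oxidase and the ATP synthase draw on both genomes, while succinate dehydrogenase is wholly nuclear. Transcription of the nuclear genes is known to be held down by glucose, to be raised by the heme-activated factor Hap1 and by the Hap2, Hap3, Hap4 and Hap5 complex, which binds CCAAT boxes, and for the hypoxic isoforms to be repressed by Rox1.

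The values are scaled counts, the reads counted on a gene divided by 1 size factor per library, so a scaled count is close to a read count at the mean depth of the series. The libraries held from 34188755 to 39501874 reads on listed genes. The RRP6 gene (YOR001W) had 4.17 and 8.33 scaled counts in rrp6Δ, against 18538 and 21173 in Rrp6exo- and 19503 and 21626 in WT, and the D238N allele cannot be told from WT RRP6 by a count. STE3, the receptor gene expressed in α cells, had from 16122 to 26836 scaled counts, and STE2, the receptor gene of a cells, from 324 to 407, so all libraries carried the α pattern. The 7 genes of a glucose-repressed list were all higher in clone 2 than in clone 1 within every strain, with medians of the clone difference of 0.79 in rrp6Δ, 0.90 in Rrp6exo- and 1.13 in WT on the log2 scale. Its part in the results below was not tested. In bulk RNA, fewer expressing cells and less RNA per cell cannot be told apart.

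Promoter sequences are shown for the 3 members that passed a test in a fit of all 6 libraries and for the paired subunit genes COX5A and COX5B, which differ in their known response to oxygen. Each window covers 300 bases that begin 400 bases before the start codon, read 5′ to 3′ on the strand of the gene from the R64 assembly. Capitals mark matches on either strand to CCAAT, the core of the Hap2/3/4/5 site (ATTGG on the other strand), or to ATTGTT, the core of the Rox1 site (AACAAT on the other strand). The windows are chrX:525935-526234 (plus strand) for CYC1 (YJR048W), chrX:647207-647506 (plus strand) for ATP2 (YJR121W), chrXI:179267-179566 (plus strand) for SDH3 (YKL141W), chrXIV:531325-531624 (plus strand) for COX5A (YNL052W) and chrIX:154822-155121 (plus strand) for COX5B (YIL111W).
CYC1: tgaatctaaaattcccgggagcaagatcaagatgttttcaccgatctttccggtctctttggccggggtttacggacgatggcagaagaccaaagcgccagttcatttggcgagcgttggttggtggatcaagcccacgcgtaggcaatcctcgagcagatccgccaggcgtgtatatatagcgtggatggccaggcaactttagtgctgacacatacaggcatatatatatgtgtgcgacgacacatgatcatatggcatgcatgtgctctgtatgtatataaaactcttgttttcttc
ATP2: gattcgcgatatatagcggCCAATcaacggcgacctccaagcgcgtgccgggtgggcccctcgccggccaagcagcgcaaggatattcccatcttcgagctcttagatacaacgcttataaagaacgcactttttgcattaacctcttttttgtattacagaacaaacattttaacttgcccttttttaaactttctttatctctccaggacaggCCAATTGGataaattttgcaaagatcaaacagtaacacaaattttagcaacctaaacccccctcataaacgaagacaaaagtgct
SDH3: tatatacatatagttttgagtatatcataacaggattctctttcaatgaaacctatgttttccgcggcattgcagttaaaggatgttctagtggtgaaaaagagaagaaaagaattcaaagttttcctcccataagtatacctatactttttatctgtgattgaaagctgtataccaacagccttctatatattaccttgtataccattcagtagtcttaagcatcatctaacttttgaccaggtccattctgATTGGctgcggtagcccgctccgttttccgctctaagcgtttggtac
COX5A: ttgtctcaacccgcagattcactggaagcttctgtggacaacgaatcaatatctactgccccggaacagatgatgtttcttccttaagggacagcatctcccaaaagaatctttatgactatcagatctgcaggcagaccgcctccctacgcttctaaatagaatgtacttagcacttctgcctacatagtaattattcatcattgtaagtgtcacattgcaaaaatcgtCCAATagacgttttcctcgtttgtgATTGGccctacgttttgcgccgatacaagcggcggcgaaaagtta
COX5B: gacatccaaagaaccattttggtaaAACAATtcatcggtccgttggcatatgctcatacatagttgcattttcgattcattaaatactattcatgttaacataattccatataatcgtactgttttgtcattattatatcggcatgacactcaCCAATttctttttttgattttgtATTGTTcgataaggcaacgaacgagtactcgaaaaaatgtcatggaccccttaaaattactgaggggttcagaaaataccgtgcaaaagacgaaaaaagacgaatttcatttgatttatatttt

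A CCAAT match was present in 34 of the 38 member windows (89.5%), against 2636 of the 6001 windows of the same length before all nuclear coding genes (43.9%). The 4 members with no match in the window were COX4, CYT1, CYC1 and CYC7. ATP2 held matches that begin 381, 185 and 182 bases before the start codon, of which the last 2 overlap in the run CCAATTGG, whereas SDH3 held 1 match at 147 bases. COX5A held CCAAT matches at 170 and 145 bases and none to ATTGTT, while COX5B held a CCAAT match at 247 bases and ATTGTT matches at 375 and 224 bases. An ATTGTT match was present in 10 of 38 member windows (26.3%), against 31.9% of all windows. The longer motif CGGNNNTANCGG, a consensus of the Hap1 site, was found in 1 member window, that of the bc1 subunit gene QCR6, and in 0.217% of all windows. These are matches of letters in a fixed window, which for some members reaches into a neighbouring gene, and not sites shown to be bound. Only exact matches were searched, so a window with none, such as that of CYC1, may still hold a variant of a site.

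The members covered a wide range of levels. ATP2 had the highest mean over the 6 libraries, 34798 scaled counts, and with ATP1 it held 44.7% of the summed scaled count of the 38 genes. CYC7 had the lowest mean, 34.5 scaled counts, and the lowest read count of any member in a library, 18 reads. The median member had 1247 scaled counts, against a median of 1801 over all listed genes. Per kb of coding length, the median level was 4410 for ATP synthase, 2922 for the bc1 complex, 1721 for succinate dehydrogenase and 1652 for cytochrome c oxidase. Within a complex the levels per kb were unequal, with a ratio of the highest to the lowest of 13.0 in ATP synthase (ATP2 over ATP20), 6.61 in the oxidase (COX13 over COX8), 6.09 in the bc1 complex (QCR7 over QCR10) and 5.01 in succinate dehydrogenase (SDH3 over SDH1). Untranslated ends are not part of these lengths. Together the members took 0.303% and 0.323% of the scaled counts in rrp6Δ, 0.390% and 0.309% in Rrp6exo-, and 0.328% and 0.350% in WT. The rrp6Δ shares lay below both WT shares, and those of Rrp6exo- overlapped the shares of both other strains.

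**Figure D1:**
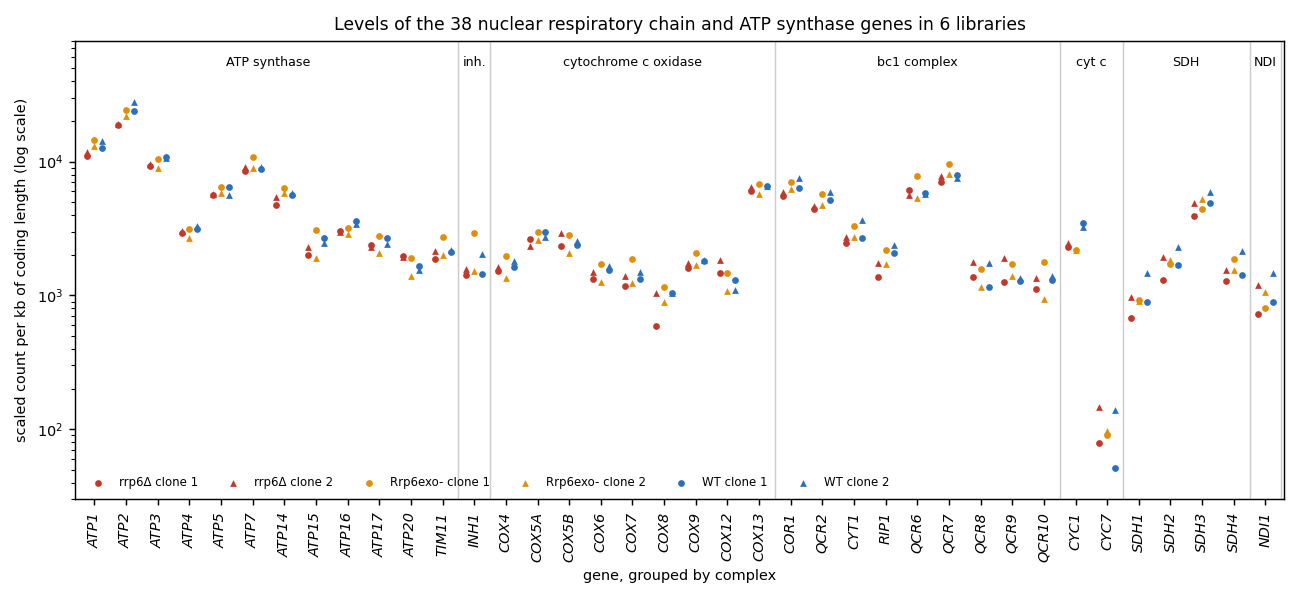
Level of each of the 38 genes in each library, as scaled count per kb of coding length on a log scale, with genes grouped by complex (inh., ATP synthase inhibitor; SDH, succinate dehydrogenase; NDI, NADH dehydrogenase) and clone 1 and clone 2 of each strain as circles and triangles. ATP2 lies highest at a mean of 22655 per kb and CYC7 lowest at 100.8 per kb.

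The comparison of rrp6Δ with WT asks what complete loss of Rrp6 does to these transcripts. On log2(scaled count + 1), limma called 0 of the 38 genes at an adjusted p under 0.05, against 11 of all 6277 genes (0.175%). At an unadjusted p under 0.05 it gave 4 members (ATP1, ATP2, RIP1 and CYC1) and 1044 of all genes, and edgeR's quasi-likelihood test on the recovered reads also called 0 members and 0.175% of all genes. The clones carry the numbers 1 and 2 in every strain, and with the replicate block in the limma fit 3 members fell (ATP2, CYC1 and SDH3), which is 3 of 38 against 6.04% of all genes called lower, and 0 rose, against 5.43% of all genes called higher. This share is close to that of all genes and is no result about the members. When any 1 rrp6Δ or WT library was left out of that fit, none of these 3 calls held, whereas without either Rrp6exo- library the same fit, with 1 residual degree of freedom, called 17 members beside 34.8% or 34.7% of all genes. The edgeR test with the replicate block called the same 3 members lower (5.74% of all genes), and DESeq2 called ATP2 and CYC1 lower (4.92%). The median log2 fold change of the members was -0.18 (lower and upper quartiles -0.28 and -0.08), beside 0.01 over all genes (quartiles -0.15 and 0.18), and 31 of the 38 values were below 0. The median was -0.08 without clone 1 of rrp6Δ and -0.10 without clone 2 of WT. Rescaling every library to the same total moved the median of all genes to 0.16, the members' median to -0.03 and the count below 0 to 20 of 38, and the members' median lay 0.19 under that of all genes with either scaling, so the counts below 0 hold only relative to the size factors. Both rrp6Δ libraries lay below both WT libraries for 19 of 38 members, against 24.9% of all genes, and above them for 2, against 25.1% of all genes. This and later statements that libraries did not overlap are made on the scaled counts and also depend on the size factors. As shares of the summed counts of each library, only ATP2, QCR2, RIP1 and CYC1 of the 19 kept rrp6Δ below both WT libraries. For the others the shares of rrp6Δ and WT overlapped, except that both rrp6Δ shares of ATP4 lay above both WT shares. The shares of all genes were not recounted in that way. Fold changes are on the log2(scaled count + 1) scale, and p-values measure only the spread between clones.

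The comparison of Rrp6exo- with WT asks the same of the loss of the exoribonuclease activity alone, and it uses the same WT libraries. limma called 0 of 38 members, against 7 of all genes (0.112%), and edgeR called 0, against 0.0956% of all genes. At an unadjusted p under 0.05 limma gave 1 member, CYC1, and 1069 of all genes. With the replicate block, 1 member fell, CYC1, against 7.04% of all genes called lower, and 0 rose, against 5.7% called higher. CYC1 was likewise the only member called lower by edgeR with the replicate block (6.75% of all genes) and by DESeq2 (5.19%). The members' median log2 fold change was -0.06, with 24 of 38 values below 0, beside 0.01 over all genes, and with libraries rescaled to the same total it was 0.05 with 11 of 38 below 0, beside 0.12 over all genes. The median was 0.10 without clone 2 of Rrp6exo- and 0.02 without clone 2 of WT, so its sign rests on single libraries. Their libraries did not overlap for 3 members in the direction of lower in Rrp6exo- (23.5% of all genes) and for 2 in the direction of higher (21.7%). The comparison of rrp6Δ with Rrp6exo- gave 0 members in limma (0.0159% of all genes), edgeR (0.0159%), DESeq2 (0.43% of all genes called lower) and both fits with the block (0.0159% in each direction), with 2 members, ATP1 and ATP2, and 343 of all genes at an unadjusted p under 0.05. There the members' median was -0.15, beside 0.003 over all genes, and it was -0.002 without clone 1 of Rrp6exo- and -0.05 without clone 1 of rrp6Δ. Both rrp6Δ libraries lay below both Rrp6exo- libraries for 9 members (15.9% of all genes) and above for 3 (17.3%). On the scaled counts, all 4 mutant libraries lay below both WT libraries for ATP3, ATP16 and CYC1, which is 3 of 38 against 16.3% of all genes, and above them for 0 members, against 13.7%. As shares of the summed counts of each library, this held for CYC1 but not for ATP3 or ATP16.

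A call that was missed does not show equal levels, and the intervals give the changes that the data allow. The 95% intervals had a median half-width of 0.44 on the log2 scale, from 0.24 for ATP3 to 1.32 for CYC7. A change of 2-fold or more in either direction lay outside the interval for 33 members in rrp6Δ against WT, for 34 in Rrp6exo- against WT and for 35 in rrp6Δ against Rrp6exo-. The exceptions were CYC7 and INH1 in all 3 comparisons, SDH1 and NDI1 in both comparisons with WT, and COX8 in both comparisons of rrp6Δ.

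**Figure D2:**
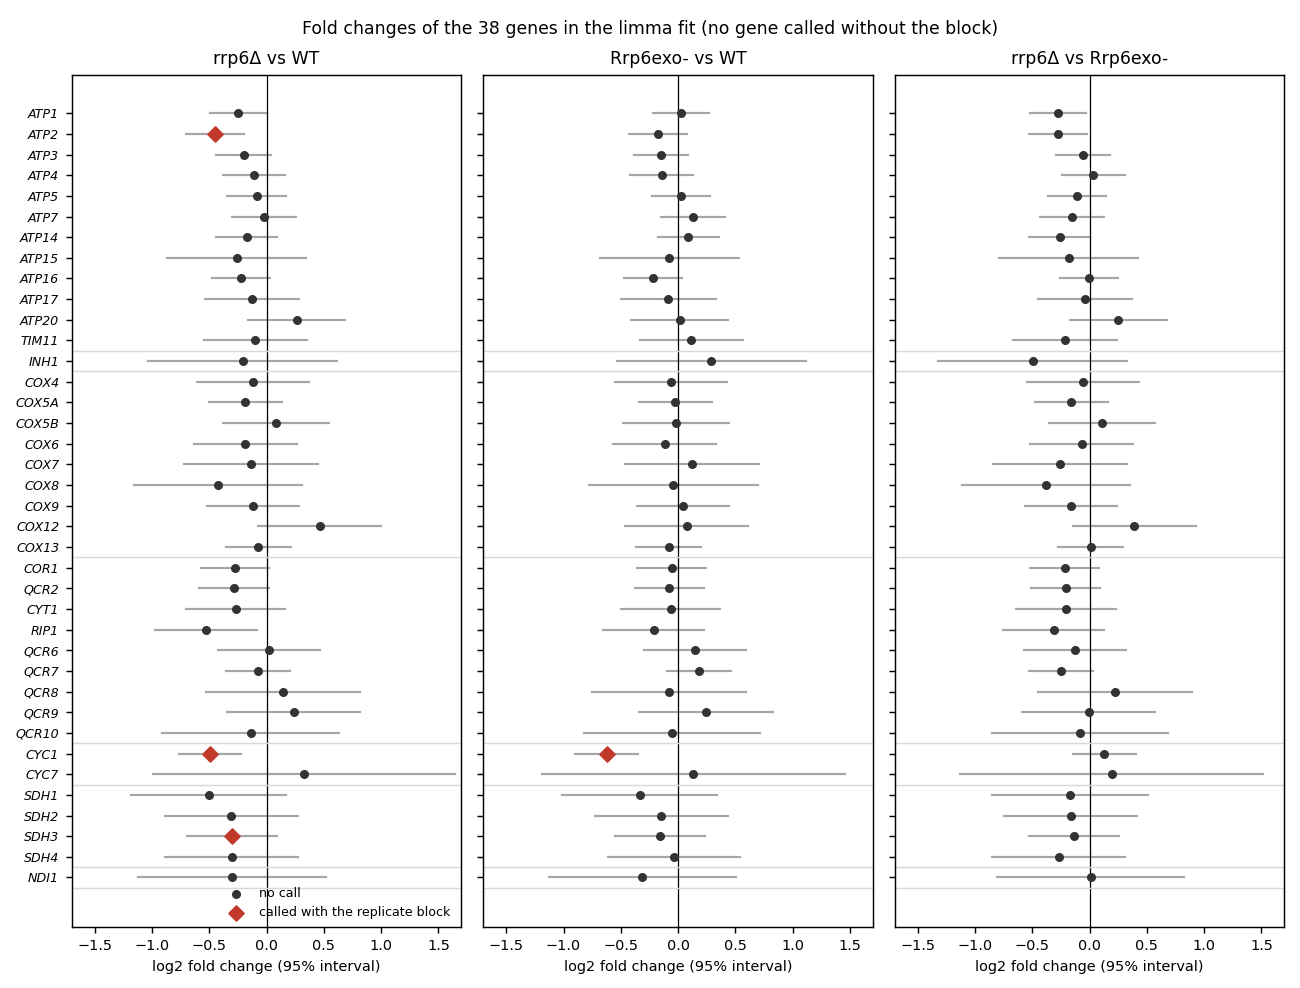
Log2 fold change (points) and 95% interval (bars) of each of the 38 genes in the limma fit, one panel per comparison, with genes in the order of their complexes and diamonds for genes called with the replicate block. The medians are -0.18, -0.06 and -0.15, and only CYC1 carries a diamond in both comparisons with WT.

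CYC1 (YJR048W; chromosome X, 526335 to 526664, no intron) encodes iso-1-cytochrome c, the aerobic carrier between the bc1 complex and the oxidase. It had 761 and 810 scaled counts in rrp6Δ and 718 and 718 in Rrp6exo-, against 1147 and 1068 in WT. All 4 mutant libraries lay below both WT libraries. The level in rrp6Δ was 0.710 times that of WT (95% interval 0.587 to 0.858), with a log2 fold change of -0.49 (SE 0.11), a limma adjusted p of 0.148 and an adjusted p of 0.0235 with the replicate block. In Rrp6exo- it was 0.649 times that of WT (0.537 to 0.784), with a log2 fold change of -0.62 (SE 0.11), a limma adjusted p of 0.100 and an adjusted p of 0.012 with the block, which was 0.109 without WT clone 1. Between rrp6Δ and Rrp6exo- the log2 fold change was 0.13, with an interval from -0.14 to 0.40. CYC7 (YEL039C; chromosome V, 79636 to 79977) encodes iso-2-cytochrome c, the minor and hypoxic isoform, whose protein is 83.5% identical to that of CYC1 over 109 aligned residues. It had 27.1 and 50.0 scaled counts in rrp6Δ and 31.1 and 33.2 in Rrp6exo-, against 17.7 and 47.8 in WT, so the strains overlapped. Its log2 fold change of 0.33 in rrp6Δ against WT had an interval from -0.995 to 1.65 (limma adjusted p 0.82), and without WT clone 1 it was -0.37. With 1 added to both scaled counts, the ratio of CYC7 to CYC1 was 0.0369 and 0.0629 in rrp6Δ and 0.0446 and 0.0476 in Rrp6exo-, against 0.0163 and 0.0457 in WT. The exact two-sided permutation test of the log2 ratio gave p = 0.667 for either mutant against WT, where 2 libraries against 2 cannot go below 0.33.

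Among the 12 ATP synthase genes, ATP2 (YJR121W; chromosome X, 647607 to 649142), which encodes the catalytic β subunit, was the one called with the replicate block. It had 29007 and 29303 scaled counts in rrp6Δ and 37020 and 33645 in Rrp6exo-, against 36891 and 42922 in WT. Both rrp6Δ libraries lay below all 4 others, and the Rrp6exo- and WT libraries overlapped. The level in rrp6Δ was 0.733 times that of WT (0.614 to 0.874), with a log2 fold change of -0.45 (SE 0.10), a limma adjusted p of 0.153 and an adjusted p of 0.0347 with the block. Its partner in the catalytic hexamer, the α subunit gene ATP1 (YBL099W), had 17959 and 19170 scaled counts in rrp6Δ, below the 23578 and 21515 in Rrp6exo- and the 20712 and 23552 in WT, and its log2 fold change against WT was -0.25 (limma adjusted p 0.29, 0.11 with the block). The γ subunit gene ATP3 (YBR039W), which encodes the rotor shaft, had 8654 and 8915 scaled counts in rrp6Δ and 9856 and 8437 in Rrp6exo-, against 10160 and 10035 in WT. The δ subunit gene ATP16 (YDL004W), also of the central stalk, had 1463 and 1447 in rrp6Δ and 1540 and 1386 in Rrp6exo-, against 1748 and 1649 in WT. For both genes every mutant library lay below both WT libraries on the scaled counts. As shares of the summed counts of each library, rrp6Δ clone 2 lay above WT clone 2 for ATP3. In the same shares rrp6Δ clone 1 lay above WT clone 2 for ATP16. Neither gene was called over all 6 libraries by limma or edgeR, with or without the block, or by DESeq2. ATP20 (YPR020W), for subunit g at the dimer interface, stood on the other side with 682 and 670 scaled counts in rrp6Δ and 659 and 490 in Rrp6exo-, against 582 and 543 in WT. It gave a log2 fold change of 0.26 in rrp6Δ against WT (limma adjusted p 0.50) and 0.25 against Rrp6exo- (0.90), which was 0.04 without clone 2 of Rrp6exo-.

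The other 7 ATP synthase genes had log2 fold changes from -0.26 to -0.02 in rrp6Δ against WT. They are ATP15, for the ε subunit of the central stalk, ATP4, ATP5, ATP7 and ATP14, for parts of the stator that holds the catalytic head, and ATP17 and TIM11, for small membrane subunits. ATP15, the shortest of them with a coding length of 189 bases, had 381 and 433 scaled counts in rrp6Δ and 587 and 363 in Rrp6exo-, against 508 and 467 in WT. Over all 12 genes the median log2 fold change was -0.15 in rrp6Δ and -0.03 in Rrp6exo-, both against WT, with 11 and 6 values below 0, and with libraries rescaled to the same total it was 0.005 and 0.08, with 6 and 4 values below 0. On the scaled counts, the libraries of rrp6Δ lay below those of WT for 8 of the 12 and above for 1, ATP20, against 24.9% and 25.1% of all genes. As shares of the summed counts of each library, this held for ATP20 and, among the 8, for ATP2 only. INH1 (YDL181W), whose product binds the enzyme and blocks ATP hydrolysis, had 367 and 407 scaled counts in rrp6Δ and 753 and 396 in Rrp6exo-, against 376 and 529 in WT. Its log2 fold change of 0.29 in Rrp6exo- against WT (limma adjusted p 0.72) and of -0.50 in rrp6Δ against Rrp6exo- (0.90) rested on clone 1 of Rrp6exo-. Without that library these values were -0.17 and -0.04.

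Of the 9 cytochrome c oxidase genes 0 were called over all 6 libraries by limma or edgeR, with or without the block, or by DESeq2, and 0 had an unadjusted limma p under 0.05 in either comparison with WT. COX5A (YNL052W; chromosome XIV, 531725 to 532186) and COX5B (YIL111W; chromosome IX, 155222 to 155765, 1 intron) encode interchangeable forms of subunit V, the first made in aerobic and the second known to be favoured in hypoxic cells. COX5A had 1227 and 1084 scaled counts in rrp6Δ and 1385 and 1201 in Rrp6exo-, against 1375 and 1253 in WT, and its log2 fold change in rrp6Δ was -0.19 (limma adjusted p 0.53). COX5B had 1066 and 1329 in rrp6Δ and 1289 and 950 in Rrp6exo-, against 1089 and 1154 in WT, and its log2 fold change in rrp6Δ was 0.09 (0.88). In these cells the hypoxic gene thus had a level near that of the aerobic gene, with a ratio per kb of coding length of 0.88 and 1.24 in rrp6Δ and 0.94 and 0.80 in Rrp6exo-, against 0.80 and 0.93 in WT. The proteins are 65.3% identical and the coding sequences 67.4% over 417 aligned bases, and for CYC1 and CYC7 the coding sequences are 79.2% identical over 313 bases, so how reads shared by either pair were counted is uncertain. An exact two-sided permutation test of the log2 ratio gave p = 0.667 for rrp6Δ and p = 1 for Rrp6exo- against WT. These values differ by no more than the clones do.

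COX12 (YLR038C), for subunit VIb on the outer face of the oxidase, gave the highest log2 fold change of any member in rrp6Δ against WT. It had 372 and 465 scaled counts in rrp6Δ and 368 and 273 in Rrp6exo-, against 328 and 277 in WT. On the scaled counts both rrp6Δ libraries lay above the other 4. As a share of the summed counts of its library, rrp6Δ clone 1 lay below Rrp6exo- clone 1. The log2 fold change was 0.46 against WT (limma adjusted p 0.35, 0.13 with the block) and 0.39 against Rrp6exo- (0.90). These values were 0.30 against WT without clone 2 of rrp6Δ and 0.18 against Rrp6exo- without clone 2 of Rrp6exo-, and between the libraries numbered 1 they were 0.18 and 0.02. COX8 (YLR395C), for subunit VIII, had 140 and 245 scaled counts in rrp6Δ and 274 and 213 in Rrp6exo-, against 249 in both libraries of WT. Its log2 fold change was -0.42 in rrp6Δ against WT (limma adjusted p 0.54) and -0.38 against Rrp6exo- (0.92), and both rested on clone 1 of rrp6Δ. The value against WT was -0.02 between the libraries numbered 2, and that against Rrp6exo- was 0.02 without clone 1 of rrp6Δ. COX4, COX6, COX7, COX9 and COX13, for the remaining small subunits around the mitochondrially made core, had log2 fold changes from -0.19 to -0.07 in rrp6Δ and from -0.12 to 0.12 in Rrp6exo-, both against WT. The 9 genes had a median of -0.12 in rrp6Δ and -0.03 in Rrp6exo-, which became 0.03 and 0.08 with libraries rescaled to the same total. On the scaled counts, the rrp6Δ libraries lay below those of WT for 6 of 9 genes (24.9% of all genes) and above for 1, COX12 (25.1%). As shares of the summed counts of each library, this held for COX12 but for no gene of the 6.

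The bc1 complex showed the lowest single value of the rrp6Δ comparison and no call. RIP1 (YEL024W), the gene of the Rieske iron-sulfur protein, had 894 and 1127 scaled counts in rrp6Δ and 1408 and 1106 in Rrp6exo-, against 1352 and 1549 in WT. Its log2 fold change was -0.53 in rrp6Δ against WT (95% interval -0.97 to -0.08, limma adjusted p 0.24, 0.066 with the block) and -0.31 against Rrp6exo- (limma adjusted p 0.90), where the libraries overlapped and the value was -0.14 without clone 1 of Rrp6exo-. COR1 and QCR2, for the core proteins, and CYT1, for cytochrome c1, had log2 fold changes of -0.27, -0.28 and -0.27 in rrp6Δ against WT, and COR1 had 7564 and 8142 scaled counts in rrp6Δ and 9759 and 8530 in Rrp6exo-, against 8675 and 10389 in WT. The small subunit genes lay on both sides of 0. QCR9 (YGR183C, 1 intron) had 254 and 381 scaled counts in rrp6Δ and 347 and 282 in Rrp6exo-, against 258 and 269 in WT, with a log2 fold change of 0.24 in both mutants against WT (limma adjusted p 0.68 and 0.66). QCR7 (YDR529C) had 2707 and 2992 in rrp6Δ and 3672 and 3129 in Rrp6exo-, against 3073 and 2918 in WT, with 0.18 in Rrp6exo- against WT (0.48). QCR8 (YJL166W), for a small subunit next to cytochrome b, had 394 and 507 in rrp6Δ and 449 and 328 in Rrp6exo-, against 331 and 497 in WT, with 0.22 in rrp6Δ against Rrp6exo- (0.97). QCR6, for the acidic hinge protein, and QCR10, a short gene with 1 intron, gave 0.02 and -0.14 in rrp6Δ against WT. The 9 bc1 genes had a median of -0.14 in rrp6Δ and -0.06 in Rrp6exo-, both against WT. With libraries rescaled to the same total these medians were 0.02 and 0.05.

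All 4 succinate dehydrogenase genes had negative log2 fold changes in both mutants against WT over all libraries, and 1 was called with the block. SDH4 in Rrp6exo- was an exception when libraries were rescaled to the same total. In Rrp6exo- only SDH3 lay below WT in both pairs of libraries with the same number. Between the libraries numbered 1, Rrp6exo- was higher than WT for SDH1, for SDH2 (1375 against 1358) and for SDH4 (1018 against 773). SDH3 (YKL141W; chromosome XI, 179667 to 180263), for a membrane anchor, had 2347 and 2911 scaled counts in rrp6Δ and 2647 and 3131 in Rrp6exo-, against 2937 and 3518 in WT. Both rrp6Δ libraries lay below both WT libraries by a small margin on the scaled counts, but not as shares of the summed counts of each library. On the log2 scale the rrp6Δ libraries were 0.32 and 0.27 lower than the WT library of the same number. The log2 fold change was -0.30 (SE 0.16) with a limma adjusted p of 0.41, and with the replicate block the SE was 0.068 and the adjusted p 0.0356. Without the block it was -0.14 when clone 1 of rrp6Δ was left out and -0.17 when clone 2 of WT was. SDH1 (YKL148C), for the flavoprotein that oxidizes succinate and 77.0% identical to SDH9 over 1794 bases, had 1296 and 1873 in rrp6Δ and 1773 and 1736 in Rrp6exo-, against 1729 and 2829 in WT. The strains overlapped, with log2 fold changes of -0.50 in rrp6Δ (limma adjusted p 0.42, 0.078 with the block) and -0.33 in Rrp6exo- (0.59) against WT, and without WT clone 2 these were -0.15 and 0.02. SDH2, for the iron-sulfur subunit, and SDH4, for the other anchor, had -0.31 and -0.31 in rrp6Δ and -0.15 and -0.04 in Rrp6exo-. NDI1 (YML120C), which feeds electrons from matrix NADH to ubiquinone in place of a complex I, had 1116 and 1848 scaled counts in rrp6Δ and 1241 and 1640 in Rrp6exo-, against 1390 and 2257 in WT. Its log2 fold change was -0.31 in Rrp6exo- against WT (limma adjusted p 0.69, 0.078 with the block), and 0.04 without WT clone 2.

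**Figure D3:**
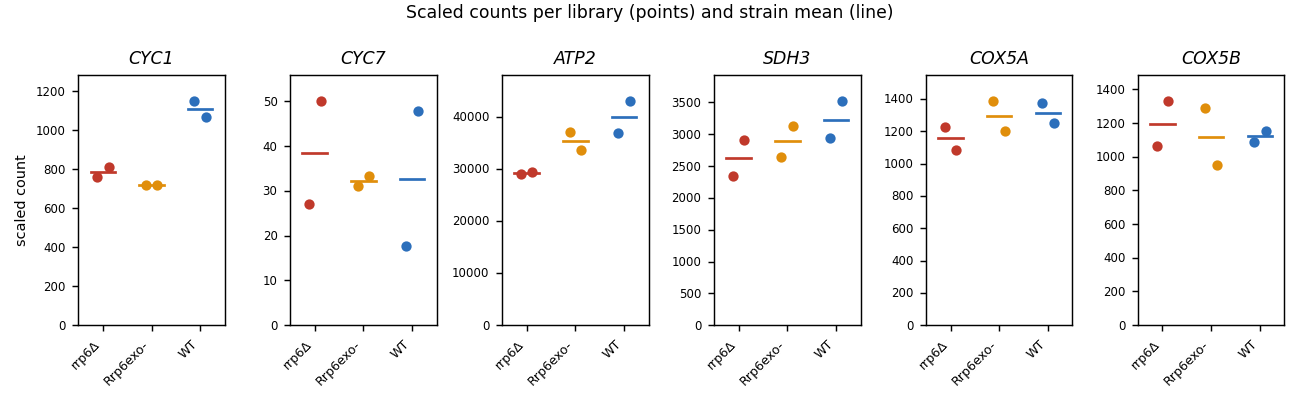
Scaled counts of CYC1, CYC7, ATP2, SDH3, COX5A and COX5B in each library (points, clone 1 left of clone 2) and the mean of each strain (lines), with strains in the order rrp6Δ, Rrp6exo-, WT and axes from 0. CYC1 lies between 718 and 810 in the mutants and at 1068 and 1147 in WT, whereas the strains overlap for CYC7 and COX5B.

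The clones of a strain differed in the members' levels, and not in the same direction in each strain. In rrp6Δ, 5 of the 38 members were lower in clone 2 than in clone 1 (13.2%, against 51.5% of all genes), in Rrp6exo- 34 were (89.5%, against 48.6%), and in WT 13 were (34.2%, against 52.0%). The median clone difference of the members was 0.15, -0.26 and 0.08 on the log2 scale in the 3 strains in that order. In every strain 4 of the 38 members were higher in clone 2 (SDH2, SDH3, NDI1 and CYC7), against 1636 of all 6277 genes. In every strain 5 were lower in clone 2 (ATP16, ATP17, ATP20, COX5A and QCR6), against 1634 of all genes. NDI1 differed by 0.73 in rrp6Δ, 0.40 in Rrp6exo- and 0.70 in WT. HAP4 (YKL109W), the limiting subunit of the CCAAT-binding activator, had 9569 and 17401 scaled counts in rrp6Δ and 7446 and 15575 in Rrp6exo-, against 8715 and 18905 in WT, so clone 2 was higher in every strain. The 12 ATP synthase genes had median clone differences of 0.05 in rrp6Δ, -0.23 in Rrp6exo- and 0.01 in WT. In Rrp6exo- the largest steps were those of short genes, among them INH1 at -0.93, QCR10 at -0.92 and ATP15 at -0.69. Across the 38 genes the clone difference in Rrp6exo- correlated with log2 coding length at r = 0.57, against 0.10 over 5712 nuclear coding genes. The clone difference did so at 0.31 in WT (0.06 over the 5712 genes) and -0.05 in rrp6Δ (-0.04). The log2 fold change did so at r = -0.47 in rrp6Δ against WT, against -0.14 over the 5712 genes. It was -0.43 in Rrp6exo- against WT (-0.04) and -0.18 in rrp6Δ against Rrp6exo- (-0.14). These correlations share their libraries and carry no test. The paper reports that the RNA integrity number, a measure of RNA quality, varied between its samples, but the sources used here give no value per library. What sets the clones apart was not tested.

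**Figure D4:**
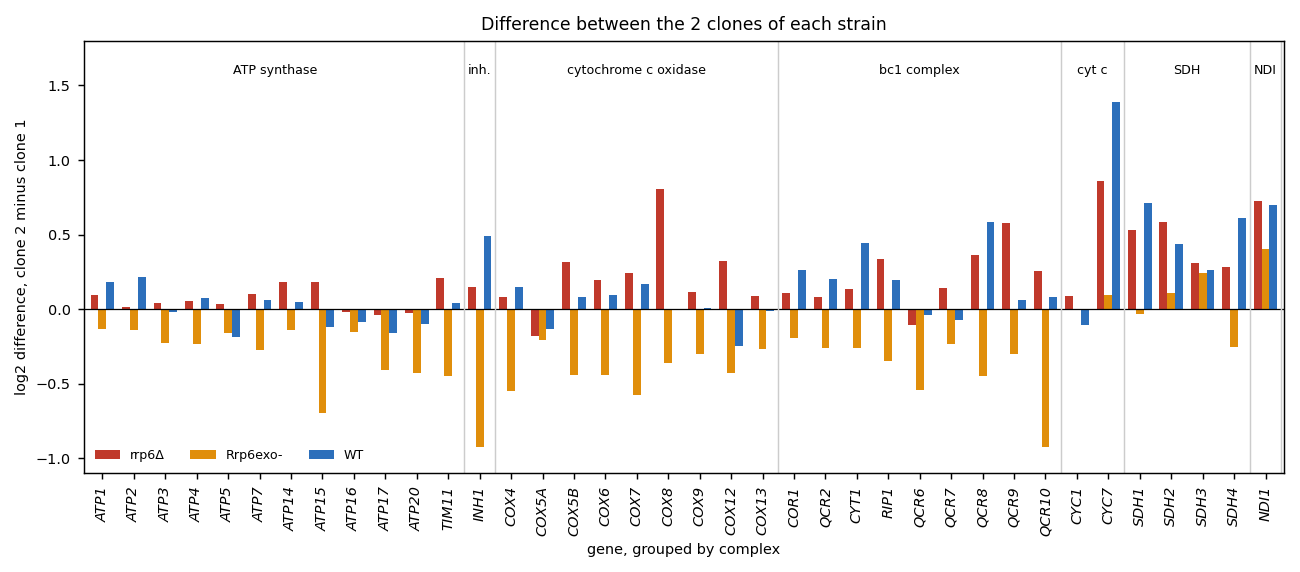
Difference between the clones of each strain for each of the 38 genes, as log2(scaled count + 1) of clone 2 minus clone 1, with bars for rrp6Δ, Rrp6exo- and WT (inh., ATP synthase inhibitor; SDH, succinate dehydrogenase; NDI, NADH dehydrogenase). Bars of Rrp6exo- point down for 34 of 38 genes. NDI1 and SDH3 are among the 4 genes that point up in all 3 strains, and 5 genes point down in all 3.

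Since the same gene set is driven by known regulators, those were read as well. HAP1 (YLR256W) had 12359 and 13101 scaled counts in rrp6Δ and 12932 and 14841 in Rrp6exo-, against 10923 and 13362 in WT. ROX1 (YPR065W) had 7386 and 7015 in rrp6Δ and 8056 and 8914 in Rrp6exo-, against 6919 and 6813 in WT, and rose in Rrp6exo- with the replicate block, with a log2 fold change of 0.30 against WT (adjusted p 0.041, limma adjusted p 0.18 without it, DESeq2 adjusted p 0.0232). HAP5 (YOR358W), a subunit of the CCAAT-binding complex, had 293 and 286 in rrp6Δ and 248 and 268 in Rrp6exo-, against 357 and 374 in WT, and fell in Rrp6exo- with the block, with a log2 fold change of -0.50 against WT (adjusted p 0.042, limma adjusted p 0.18 without it, DESeq2 adjusted p 0.0423). HAP4 gave a log2 fold change of 0.01 in rrp6Δ and -0.25 in Rrp6exo- against WT. No other regulator of the 11 listed passed limma with or without the block, or DESeq2, against WT, and the median log2 fold change of the 11 was -0.03 in both mutants. With the block, 1 of 11 was thus called higher and 1 lower in Rrp6exo-, beside 5.7% and 7.04% of all genes. These shares rest on 1 gene each and are no result about the regulators. Values of the 2 calls with a library left out are not given.

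The other genes of the pathway passed limma in no comparison without the block, so the calls given here are those with the block. Values with a library left out, or with libraries rescaled to the same total, are not given for these lists. In rrp6Δ against WT the number at an unadjusted limma p under 0.05 was 2 of 15 further chain genes, 4 of 36 assembly factors, 0 of 11 translation activators, 6 of 11 TCA cycle genes and 5 of 6 mitochondrially encoded genes, beside 1044 of all 6277 genes, and edgeR without the block called 0 in each list. With the block, 6.04% of all genes were called lower and 5.43% higher in rrp6Δ against WT, and 7.04% lower and 5.7% higher in Rrp6exo- against WT. Of 15 further chain and synthase genes, 2 fell with the block in each mutant, CYB2 and DLD1, which encode lactate dehydrogenases that pass electrons to cytochrome c. CYB2 had a log2 fold change of -1.91 in rrp6Δ and -2.41 in Rrp6exo- against WT (adjusted p 0.00195 and 0.000798 with the block, limma adjusted p 0.176 and 0.129 without it), and DLD1 of -0.65 and -0.83. Of 11 TCA cycle genes, 7 fell with the block in each mutant. CIT1, ACO1, IDH1, IDH2, KGD2 and FUM1 fell in both, LSC1 in rrp6Δ and MDH1 in Rrp6exo-. DESeq2 called 5 of the 11 lower in rrp6Δ and 4 in Rrp6exo-, beside 4.92% and 5.19% of all genes. ACO1, the aconitase gene, had a log2 fold change of -1.0 in both mutants, and the list median was -0.39 in rrp6Δ and -0.37 in Rrp6exo-. Of 36 assembly factor genes, 3 fell with the block in rrp6Δ (CYC3, the heme lyase of cytochrome c, OXA1 and MSS51), and in Rrp6exo- 4 fell (ATP12, COX11, COX23 and MSS51) and 1 rose (ATP10), with list medians of -0.09 and -0.17. None of 11 mitochondrial translation activators passed either fit. The 6 mitochondrially encoded subunit genes listed had a median log2 fold change of 0.69 in rrp6Δ and 0.01 in Rrp6exo- against WT, and COX1, COX3, COB, ATP6 and OLI1 rose in rrp6Δ with the block. In rrp6Δ against Rrp6exo- ATP6 was the only gene of these lists to pass limma with the block, at a log2 fold change of 3.98 (adjusted p 0.000542, limma adjusted p 0.124 without it), and DESeq2 called ATP6 and COB.

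**Figure D5:**
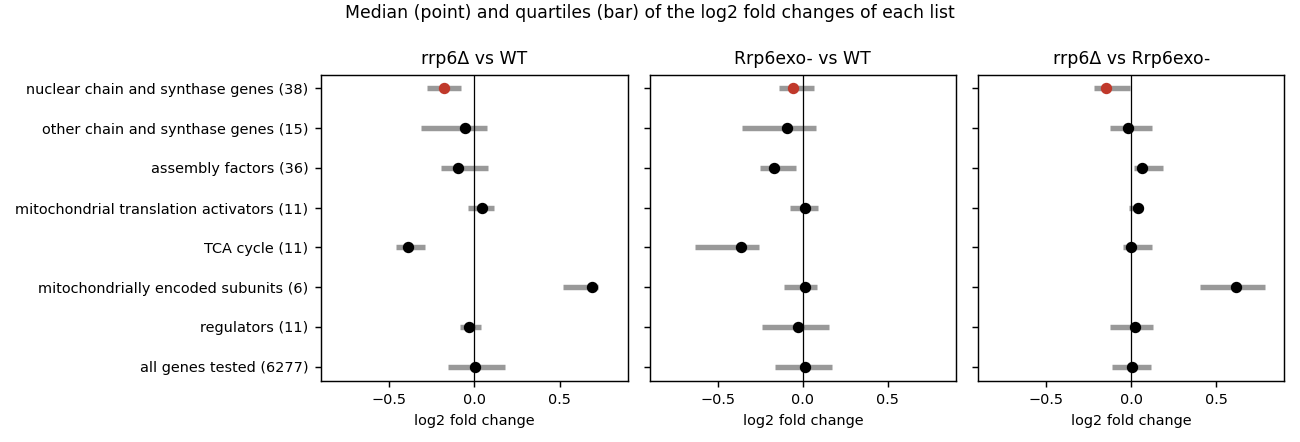
Median (points) and lower and upper quartiles (bars) of the log2 fold changes in each list of genes, one panel per comparison, with the number of genes in parentheses and the 38 nuclear genes in red. The 38 genes sit at -0.18, -0.06 and -0.15, the TCA cycle genes at -0.39 and -0.37 in the comparisons with WT, and the mitochondrially encoded genes at 0.69 in rrp6Δ against WT.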

How the data were processed

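RNA was measured in 6 libraries, 2 clones of each of 3 strains. The deposited values are signal values that the authors made by aligning reads with STAR to sacCer3, counting them per gene with HTSeq (version 0.5.3, beside Picard 1.124) and dividing the counts by a DESeq size factor per library. The strand setting of the counting is not given in the sources used here, so antisense reads cannot be told apart. The columns hold whole reads divided by the size factor (100.0% of values whole within 0.001 of a read), and the reads were recovered for the count tests. No column was left unused (0).

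limma (3.58.1, R 4.3.3) was fitted with a variance trend on log2(scaled count + 1) over all 6277 genes (all had a summed scaled count of at least 10) and all 6 libraries with strain as the only term, and p-values were adjusted by Benjamini-Hochberg over all genes at 0.05. edgeR (4.0.16) and DESeq2 (1.42.0) on the recovered reads were alternatives, and the fits were tested on simulated data. Clones with the same number deviated together: the differences of clone 2 minus clone 1 correlated over 6277 genes at r = 0.459 between rrp6Δ and Rrp6exo-, 0.586 between rrp6Δ and WT and 0.547 between Rrp6exo- and WT, so fits with the replicate block were added. The authors describe the libraries as independent biological replicates, grown from individually selected clones, and intervals cover the spread between them, with reads that carry no molecular identifiers. Ratios were compared by an exact permutation test. The library depth of 34188755 to 39501874 reads limits mainly CYC7.

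Values in every library are given for members called in either limma fit, for the 3 largest and 3 smallest log2 fold changes of each comparison, for COX5A, COX5B, CYC1 and CYC7, and for HAP1, HAP4 and ROX1. ATP1, ATP3, ATP15, ATP16 and COR1 were added after their values were seen. The members and lists were chosen with earlier results of these data known. Systematic names found 5739 of the 6277 genes, and all 38 members, in the annotation of assembly R64, which also gave the sequences.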

Additional observations from a re-analysis of the deposited data

How the results depend on the processing

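With 2 clones per strain the data resolve mainly changes larger than the 95% half-widths, whose median was 0.44 on the log2 scale. Of all genes, limma with the replicate block called 720 in rrp6Δ against WT, 800 in Rrp6exo- against WT and 2 in rrp6Δ against Rrp6exo-, and edgeR with the replicate block 717, 797 and 2, against 11, 7 and 1 with limma and 11, 6 and 1 with edgeR without the block. DESeq2, which was run without the block, called 504, 517 and 49. Rescaling to the same total gave 25 and 37 in the comparisons with WT, no variance trend 17 and 20, the same upper quartile 21 in Rrp6exo- against WT, and only the 4 libraries compared 1, 3 and 2. Leaving out 1 library gave 1 to 3, 0 to 3 and 1 to 2 genes, and 0 members in each. Members called were 3 with the replicate block, 3 with edgeR and the block and 2 with DESeq2 in rrp6Δ against WT, and 1, 1 and 1 in Rrp6exo- against WT. With the replicate block and 1 library left out, an alternative chosen after seeing the data, members called were 0 to 17, 0 to 18 and 0 to 20. They were 17 without either Rrp6exo- clone and 1 without WT clone 1 in rrp6Δ against WT, 1 without either rrp6Δ clone or WT clone 2, 18 without Rrp6exo- clone 1 and 10 without clone 2 in Rrp6exo- against WT, and 4 without Rrp6exo- clone 1 and 20 without clone 2 in rrp6Δ against Rrp6exo-. There CYC1, ATP2 and SDH3 had adjusted p of 4.86e-06, 3.02e-08 and 0.000506 without Rrp6exo- clone 1 in rrp6Δ against WT, at log2 fold changes of -0.49, -0.45 and -0.30. Every fit with the replicate block and 1 library left out had 1 residual degree of freedom. The fit that gave these adjusted p called 34.8% of all genes in rrp6Δ against WT. Without an Rrp6exo- clone, 1 library stood for that strain. In both comparisons with Rrp6exo- such fits also called more of all genes than the block fit of all libraries. These member counts and adjusted p are therefore no result about the members. The members' median was -0.0256 in rrp6Δ against WT with the same total. With libraries numbered 1 alone it was 0.17 in Rrp6exo- against WT and -0.37 in rrp6Δ against Rrp6exo-, and with those numbered 2 alone -0.27 and 0.10. Leaving out 1 library gave medians of -0.24 to -0.08, -0.18 to 0.10 and -0.29 to -0.0021. Directions reversed with libraries numbered 1 alone for COX5B (-0.0311, rrp6Δ against WT), SDH1 (0.0363, Rrp6exo- against WT) and QCR8 (-0.19, rrp6Δ against Rrp6exo-). With those numbered 2 alone they reversed for INH1 (-0.42 in Rrp6exo- against WT and 0.0386 in rrp6Δ against Rrp6exo-), COX8 (0.20) and RIP1 (0.0267). Over libraries left out in turn, CYC7 ranged from -0.37 to 1.02 and COX5B from -0.0728 to 0.24 in rrp6Δ against WT, INH1 from -0.17 to 0.75, SDH1 from -0.69 to 0.0211 and NDI1 from -0.66 to 0.0374 in Rrp6exo- against WT, and QCR8 from -0.00544 to 0.44 and COX8 from -0.79 to 0.0228 in rrp6Δ against Rrp6exo-. The cause was not tested.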
